A study of Mus musculus with 4 samples.

Results

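Zinc handling in the developing mouse kidney is described here through 5 genes: the metallothioneins Mt1 and Mt2, the metal-responsive transcription factor Mtf1, and the zinc transporters Slc30a1 and Slc39a5. They were picked by symbol from the 20672 genes listed in the count matrices, with their levels in these libraries already known. Their levels are therefore a description, and no test was made on them.

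Single-cell RNA of mouse kidney was counted as unique molecular identifiers (UMIs) from the 3′ end of transcripts, in 4 libraries with 1 library for each group. The transplant library held kidneys of C57BL/6N embryos at E12.5 that had spent 12 days in epididymal fat. The other libraries were kidneys at E15.5 (ICR strain), E17.5 (C57BL/6) and P0 (ICR). All were labelled wild type. The host of the transplant is given as C57BL/6N in the sample labels and as an immunodeficient NOD mouse in the design text, and the number of animals in a library is not given. The P0 library carried 8181 UMIs of the reporter tdTomato despite its wild type label, and the other libraries carried 0. E15.5 and P0 share a strain, whereas at E17.5 and in the transplant strain and stage cannot be told apart when they are set against P0 or E15.5. With 1 library a group, differences between animals, litters and dissociations were not measured, and every interval in brackets is a 95% interval for counting error only.

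Metallothioneins are small cysteine-rich proteins that bind zinc, copper and cadmium and buffer the free zinc of a cell. Free zinc is sensed by MTF1, which binds metal response elements and switches on Mt1, Mt2 and the gene of the zinc exporter ZnT1, Slc30a1. Zinc enters the cytosol through the SLC39 (ZIP) carriers, and SLC39A5 is one that sits on the basolateral membrane of polarised epithelia. The proximal tubule is a main site of metal accumulation in the kidney, and besides metals, glucocorticoids and oxidative stress are known to raise metallothionein transcription.

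Mt1 (ENSMUSG00000031765) and Mt2 (ENSMUSG00000031762) are neighbours on the plus strand of chromosome 8, at chr8:94179082-94180327 and chr8:94172664-94173568 (GRCm38, GENCODE vM21), with 5513 bases between the end of Mt2 and the start of Mt1. Mtf1 (ENSMUSG00000028890) lies at chr4:124802104-124849800 and Slc30a1 (ENSMUSG00000037434) at chr1:191906767-191913247, both on the plus strand. Slc39a5 (ENSMUSG00000039878) lies on the minus strand at chr10:128395931-128401229. All are protein-coding. The windows around the RefSeq start sites (GRCm38.p6; 250 bases before the start and 50 from it) of the established MTF1 targets are shown because they hold the core of the metal response element. The core was searched as TGCACNC and TGCGCNC on both strands, and its matches are in capitals. No match overlapped another.
Mt1 (chr8:94178839-94179138, plus strand): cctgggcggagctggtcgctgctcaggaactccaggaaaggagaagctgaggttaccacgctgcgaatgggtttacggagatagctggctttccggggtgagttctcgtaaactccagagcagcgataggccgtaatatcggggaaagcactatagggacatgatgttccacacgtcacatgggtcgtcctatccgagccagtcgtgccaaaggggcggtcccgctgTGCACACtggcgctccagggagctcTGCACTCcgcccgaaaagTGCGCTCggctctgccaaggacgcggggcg
Mt2 (chr8:94172368-94172667, plus strand): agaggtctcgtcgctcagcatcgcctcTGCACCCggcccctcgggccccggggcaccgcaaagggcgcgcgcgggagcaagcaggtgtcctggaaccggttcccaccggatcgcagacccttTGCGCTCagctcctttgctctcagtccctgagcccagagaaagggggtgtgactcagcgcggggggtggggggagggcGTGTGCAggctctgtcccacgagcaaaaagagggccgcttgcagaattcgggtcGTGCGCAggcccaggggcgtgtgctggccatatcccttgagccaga
Slc30a1 (chr1:191906531-191906830, plus strand): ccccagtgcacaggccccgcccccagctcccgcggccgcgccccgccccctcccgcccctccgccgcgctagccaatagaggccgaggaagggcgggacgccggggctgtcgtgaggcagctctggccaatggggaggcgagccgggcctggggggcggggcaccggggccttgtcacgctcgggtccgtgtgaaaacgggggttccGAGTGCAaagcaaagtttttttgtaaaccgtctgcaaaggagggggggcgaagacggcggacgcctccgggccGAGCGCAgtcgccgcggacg

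The Mt2 window held 4 cores, beginning at bases -223, -128, -50 and 5 counted from the RefSeq start as base 1. The Mt1 window held 3 cores, beginning at -23, 3 and 21, all on the plus strand. The Slc30a1 window held 2 cores, beginning at -43 and 31, both on the minus strand. Of 32851 RefSeq mouse windows of the same length, 25.7% held at least 1 core, 7.11% at least 2, 1.97% at least 3 and 0.517% at least 4. Slc39a5 had 1 core in the window of its first listed start, at -129, and 0 in that of its second, and the Mtf1 window held 0. A match is a run of letters, not a measured binding site. The start used in these cells was not measured and cores outside a window were not counted, so positions and counts depend on the annotated start. The RefSeq start lay 7 bases from the GENCODE start for Mt1, 46 for Mt2, 14 for Slc30a1, 5 for Slc39a5 and 445 for Mtf1.

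Cells were put into classes by the UMIs of marker genes after each cell had been thinned to 3000 UMIs. A cell needed at least 3 UMIs from at least 2 markers of a class, and at least 2 times the marker UMIs of every other class. Of the cells kept, 59.3% of the transplant, 67.5% at E15.5, then 68.8% at E17.5 and 60.9% at P0 fell into a class. The level of a gene is its UMIs per 1000000 UMIs (CPM), with the cells of a class pooled within each library, given for classes of at least 20 cells. In bulk-like sums of this kind, a higher level can come from more cells with the RNA or from more RNA per cell, and the shares of cells are given for that reason. Median UMIs per kept cell were 6276.5 in the transplant, 22585 at E15.5, then 7197.5 at E17.5 and 9885.5 at P0. Of 27828 barcodes, 360 occurred in more than 1 library. Every marker of a class had UMIs in that class in each library described, except Pvalb in distal tubule cells at E17.5. The 10 proximal tubule markers together stood at 10996 CPM in transplant proximal tubule cells, 3732 at E15.5, then 10352 at E17.5 and 6491 at P0, against 131, 27.9, 41.3 and 35.9 CPM in the endothelial cells of the same libraries. There were 0 gated nephron progenitors and 19 early nephron cells in the transplant and 9 loop of Henle cells at E15.5, so these groups have no values.

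Proximal tubule cells at E15.5 had the highest Mt1 and Mt2 of any class in any library, although for Mt1 the interval overlapped that of loop of Henle cells at P0. Mt1 stood at 245 [237, 253] CPM in transplant proximal tubule cells (949 cells), 2953 [2906, 3001] at E15.5 (176 cells), then 189 [179, 199.8] at E17.5 (651 cells) and 554 [541, 567] at P0 (759 cells). The E15.5 level was the highest of the 4, the E17.5 level the lowest, and the intervals did not overlap. Mt2 stood at 42.3 [39.003, 45.9] CPM in the transplant, 2275 [2233, 2317] at E15.5, then 27.7 [23.9, 31.96] at E17.5 and 154 [147, 161] at P0. The order was that of Mt1, over a wider range. Mt1 was 5.33-fold [5.19, 5.49] lower at P0 than at E15.5, and Mt2 14.8-fold [14.1, 15.5] lower. Of 10473 genes with at least 50 UMIs over both libraries in these cells, 5.42% were at least 2-fold lower and 6.27% at least 2-fold higher at P0. Of these genes, 28 had a lower ratio than Mt1, and 11 a lower ratio than Mt2.

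At E17.5, Mt1 in proximal tubule cells was 15.6-fold [14.7, 16.5] lower than at E15.5, and Mt2 82.1-fold [71.1, 95.3] lower, in a comparison where 5.19% of 9860 genes were at least 2-fold lower. The levels did not run in 1 direction over E15.5, E17.5 and P0. E17.5 differs from both others in strain, so strain and stage cannot be told apart there. P0 stood above E17.5 by 2.93-fold [2.76, 3.11] for Mt1 and by 5.56-fold [4.78, 6.49] for Mt2, a step past 2-fold for 3.55% of 10493 genes, although for Mt1 it came to 0.93 on the log2 scale, within 2-fold, in cells low in dissociation stress RNA (at most 12 UMIs of such genes per thinned cell, a limit chosen after seeing the data). In the transplant, Mt1 was 2.26-fold [2.17, 2.36] lower than at P0 and Mt2 3.64-fold [3.32, 3.99] lower, where 5.18% of 11052 genes were at least 2-fold lower and the median over all genes was 0.20 on the log2 scale. The Mt1 difference came to -0.99 on the log2 scale with classes taken from clusters and -0.66 in the cells low in stress RNA, both within 2-fold. Against E17.5, the transplant was 1.29-fold [1.21, 1.38] higher for Mt1 and 1.53-fold [1.29, 1.81] higher for Mt2, in a comparison where 10.3% of genes were at least 2-fold higher.

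The proximal tubule cells at E15.5 also held most of the metallothionein RNA counted in their library. They were 5.08% of the kept cells and 5.84% of all UMIs, and they held 60.03% of the Mt1 UMIs and 59.95% of the Mt2 UMIs. The share of Mt1 UMIs in proximal tubule cells was 22.9% in the transplant, 25.7% at E17.5 and 23.05% at P0, where these cells were 15.1%, 14.8% and 10.03% of kept cells. Over all kept cells of a library, Mt1 stood at 284 CPM in the transplant, 287 at E15.5, then 129.9 at E17.5 and 354 at P0. In whole libraries P0 thus stood above E15.5, the reverse of the order in proximal tubule cells.

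**Figure D1:**
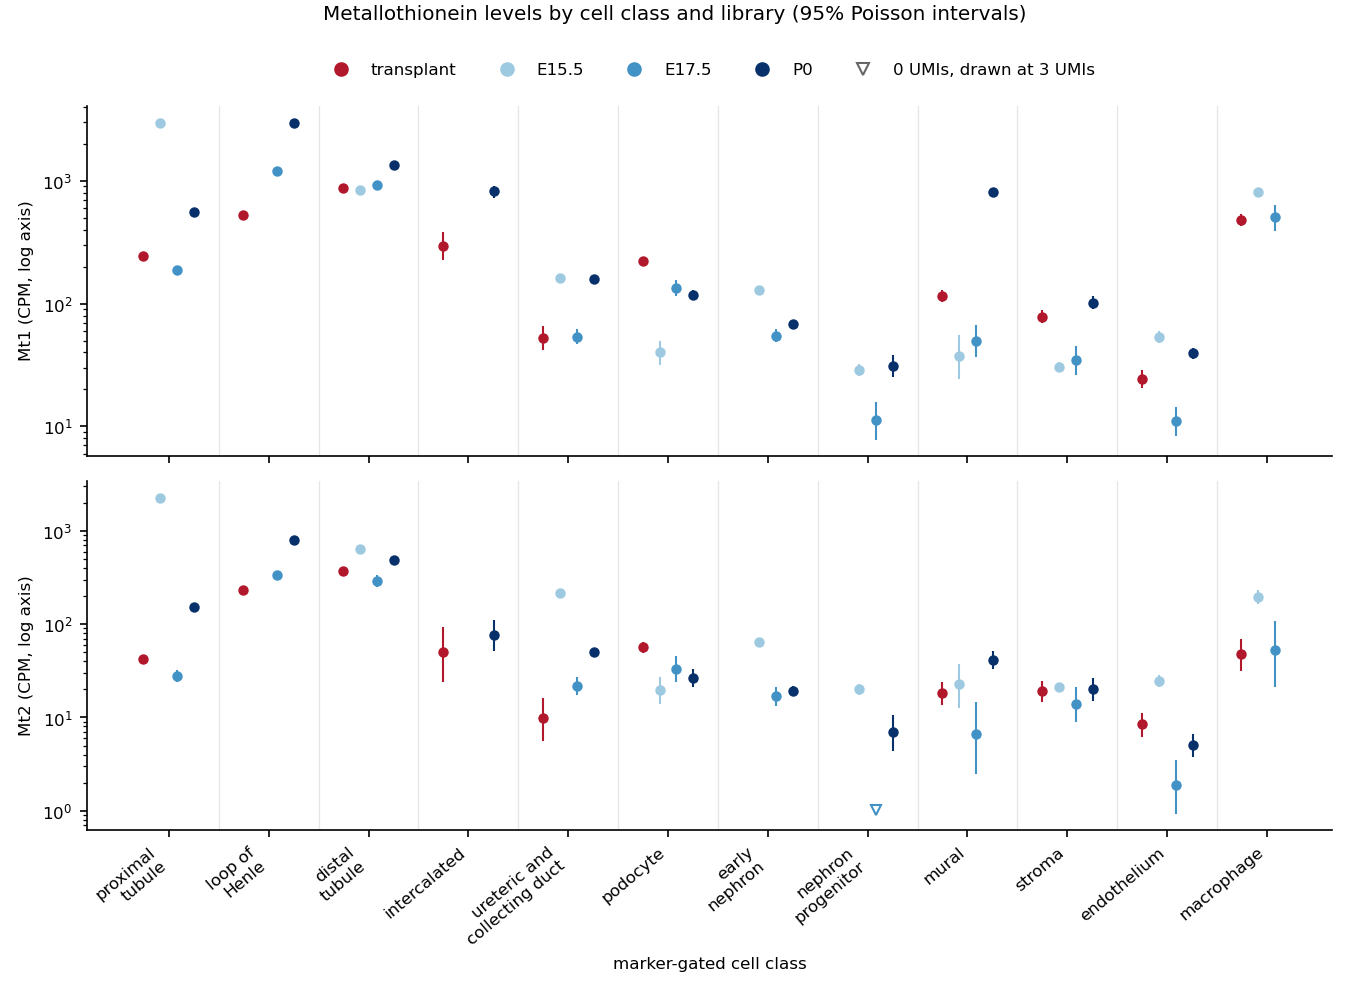
Mt1 and Mt2 in CPM on a log axis, for marker-gated classes and libraries of at least 20 cells, with exact Poisson 95% intervals. Erythroid cells at E15.5 (25 cells) are not drawn. A triangle marks 0 UMIs, drawn at the level of 3 UMIs. The E15.5 point is the highest of the libraries in proximal tubule for both genes, and the P0 point is the highest in loop of Henle for both and in mural cells.

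The high level at E15.5 was spread over most proximal tubule cells. After thinning to 3000 UMIs, Mt1 was seen in 34.5% of proximal tubule cells of the transplant, 83.5% at E15.5, then 27.3% at E17.5 and 52.96% at P0. Without thinning the shares were 62.7%, 96.6%, 47.3% and 80.4%, at median depths of 12602, 25290.5, 9603 and 14791 UMIs. In endothelial cells, where Mt1 was low, the thinned shares were 8.29%, 11.2%, 3.21% and 10.7% (unthinned 18.6%, 60.5%, 11.6% and 31.98%), at median depths of 7901, 27484, 10775 and 9832.5 UMIs. The proximal tubule share was above the endothelial share of its own library in all 4. The median E15.5 proximal tubule cell held 5 Mt1 UMIs in 3000 and the highest held 77, whereas the highest cell held 22 in the transplant, 16 at E17.5 and 21 at P0. The 18 E15.5 cells with the most Mt1 held 43.2% of its UMIs, and the 65 highest cells at E17.5 held 65.6%.

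Mt1 and Mt2 ran together from cell to cell at E15.5, with a rank correlation of 0.88 over 176 proximal tubule cells. It was 0.32 in the transplant (949 cells), 0.31 at E17.5 (651 cells) and 0.38 at P0 (759 cells), in libraries where counts of both genes per cell were lower. Both genes were seen in 134 cells at E15.5, and neither was seen in 18. The summed metallothionein UMIs of an E15.5 cell also went with its proximal tubule marker UMIs, with a rank correlation of 0.55. In the 57 cells with at least 15 marker UMIs, Mt1 stood at 5406 CPM and Mt2 at 3649, against 1953 and 1714 CPM in the 119 cells with fewer. The ratio of Mt1 between these groups of cells was 2.09 [1.88, 2.33] in the transplant, 2.77 [2.68, 2.86] at E15.5, then 2.65 [2.23, 3.17] at E17.5 and 1.03 [0.981, 1.08] at P0, and that of Mt2 was 2.14 [1.65, 2.804], 2.13 [2.05, 2.21], 1.45 [1.003, 2.15] and 1.11 [1.01, 1.22]. Cells richer in marker UMIs thus had more Mt1 in the transplant, at E15.5 and E17.5, and P0 was the library with nearly equal levels. Cells of a library are not replicates, and these correlations are a description.

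**Figure D2:**
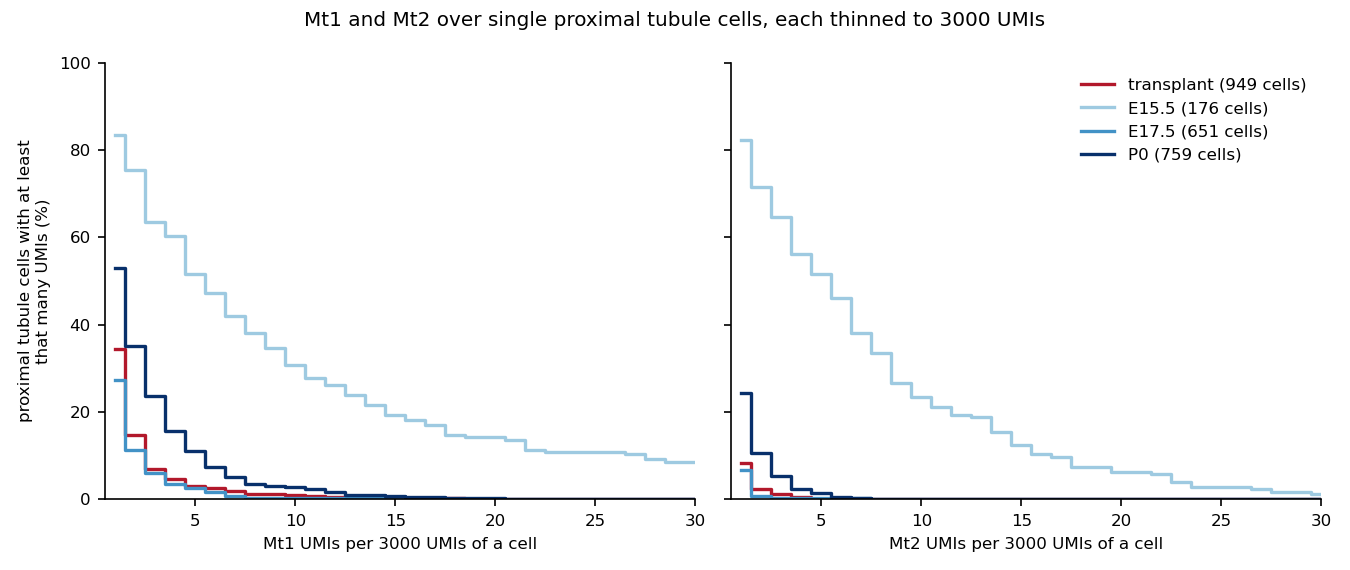
Share of proximal tubule cells (y axis, %) holding at least a given number of Mt1 or Mt2 UMIs after every cell was thinned to 3000 UMIs (x axis, 1 to 30; the highest E15.5 cell for Mt1, at 77, lies beyond it). The E15.5 curve lies above the others, and for Mt1 it starts at 83.5%, with the transplant at 34.5%, E17.5 at 27.3% and P0 at 52.96%.

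Metallothionein differed between segments of the proximal tubule in the transplant, E17.5 and P0 libraries, and that difference was not seen at E15.5. Cells were split by UMIs of S1-S2 markers (Slc5a2, Slc5a12, Slc7a7, Slc7a8; convoluted part) or of S3 markers (Slc7a13, Slc22a7, Slc22a13, Cyp7b1, Atp11a; straight part), where 1 UMI of the thinned cell was enough. Mt1 stood at 425 CPM in 372 S1-S2 cells of the transplant and 100.3 CPM in 188 S3 cells, a ratio of 4.24 [3.76, 4.801]. At E17.5 it stood at 374 CPM in 156 S1-S2 cells and 72.5 CPM in 172 S3 cells, a ratio of 5.15 [4.29, 6.23]. At P0 it stood at 789.6 CPM in 183 S1-S2 cells and 298 CPM in 140 S3 cells, a ratio of 2.65 [2.43, 2.88]. E15.5 had 3504 CPM in 25 S1-S2 cells and 4056 CPM in 34 S3 cells, a ratio of 0.864 [0.822, 0.908]. That interval leaves out the spread over cells, and 18 of the 176 E15.5 cells held 43.2% of the Mt1 UMIs. The share was larger elsewhere: 61.2% in 95 of 949 transplant cells and 65.6% in 65 of 651 cells at E17.5. At P0 it was 47.6% in 76 of 759 cells. Summed metallothionein UMIs at E15.5 had a rank correlation of 0.087 with S1-S2 marker UMIs and 0.29 with S3 marker UMIs. These correlations were 0.26 and -0.17 in the transplant, 0.23 and -0.15 at E17.5, and 0.19 and -0.16 at P0. At E15.5 the Mt1 ratio and the rank correlations thus leaned towards S3 cells, unlike the other libraries. The E15.5 ratio rests on 25 and 34 cells of 1 library, and a reversal there was not tested. For Mt2 the ratios were 5.54 [3.997, 7.88] in the transplant, 0.773 [0.729, 0.819] at E15.5, then 11.9 [5.99, 26.7] at E17.5 and 2.13 [1.82, 2.51] at P0, and the E17.5 value rests on 98 and 9 UMIs. Both metallothioneins thus stood higher in S1-S2 cells than in S3 cells outside E15.5.

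The transporters did not show that split. The S1-S2 over S3 ratio of Slc39a5 was 1.02 [0.933, 1.11] in the transplant, 1.17 [0.952, 1.42] at E15.5, then 0.903 [0.778, 1.05] at E17.5 and 0.906 [0.81002, 1.01] at P0, and each interval held 1. For Slc30a1 it was 0.724 [0.559, 0.939] in the transplant, 0.755 [0.453, 1.23] at E15.5, then 0.564 [0.381, 0.825] at E17.5 and 0.782 [0.569, 1.08] at P0. Slc30a1 was thus lower in S1-S2 cells in all 4 libraries, with intervals that reach past 1 at E15.5 and P0. Proximal tubule cells in division (at least 2 UMIs of cell cycle markers) had less Mt1 than cells with 0 such UMIs: 1927 CPM in 28 cells against 3039 CPM in 114 cells at E15.5, 131 against 198 CPM at E17.5, and 391 against 573 CPM at P0.

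Loop of Henle cells, which build the salt gradient of the medulla, had the highest Mt1 at P0. It stood at 524 [504, 544] CPM in the transplant (342 cells), 1208 [1141, 1278] at E17.5 (117 cells) and 2937 [2881, 2994] at P0 (342 cells). Mt2 stood at 232 [219, 246] CPM in the transplant, 336 [301, 373] at E17.5 and 803 [774, 833] at P0. For both genes the transplant was lowest and P0 highest, with no overlap of the intervals. Mt1 in the transplant was 5.61-fold [5.37, 5.85] lower than at P0 and Mt2 3.46-fold [3.23, 3.703] lower, where 3.79% of 9583 genes were at least 2-fold lower and 55 of them had a lower ratio than Mt1. P0 stood 2.43-fold [2.29, 2.58] above E17.5 for Mt1 and 2.39-fold [2.14, 2.69] for Mt2, a step past 2-fold for 3.35% of genes, and within 2-fold in cells low in dissociation stress RNA, at 0.95 and 0.80 on the log2 scale. The transplant was 2.305-fold [2.15, 2.47] below E17.5 for Mt1, past 2-fold as were 2.89% of genes, but within it at -0.86 on the log2 scale with classes from clusters, -0.85 in cells low in stress RNA and -0.83 at a stricter mitochondrial limit. Loop cells were 4.52% of the kept cells at P0 and held 33.9% of its Mt1 UMIs. In the transplant, Mt1 stood at 435 CPM in the 275 loop cells with UMIs of the mature marker Umod and 882 CPM in the 67 cells with Slc12a1 but no Umod. At P0 these values were 2813 CPM in 169 cells and 3085 CPM in 171 cells.

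In distal tubule cells, Mt1 varied less between libraries. Mt1 stood at 873 [846, 900.4] CPM in the transplant (333 cells), 846 [781, 914] at E15.5 (26 cells), then 926 [854, 1002] at E17.5 (70 cells) and 1349 [1268, 1433] at P0 (77 cells). The intervals of the transplant, E15.5 and E17.5 overlapped, and P0 stood above them. Mt2 stood at 370.4 [353, 388] CPM in the transplant, 638 [582, 698] at E15.5, then 292 [252, 336] at E17.5 and 484 [436, 535] at P0, so that it was highest at E15.5. E17.5 over E15.5 came to -1.13 on the log2 scale for Mt2, at least 2-fold lower as were 2.77% of genes. Within the transplant this class had the highest Mt1 and Mt2. Intercalated cells, which secrete acid or base, had 297 [226, 384] CPM of Mt1 in the transplant (27 cells) and 819 [732, 914] at P0 (35 cells). Macrophages had 480.5 [425, 541] CPM in the transplant (85 cells), 809 [745, 877] at E15.5 (42 cells) and 504 [391, 640.5] at E17.5 (23 cells).

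Mural cells (pericytes, smooth muscle and renin cells of the vessel wall) differed between P0 and E15.5 in the direction opposite to the proximal tubule. Mt1 stood at 116 [104, 129.95] CPM in the transplant (389 cells), 37.6 [24.3, 55.5] at E15.5 (39 cells, 25 UMIs), then 50.1 [36.5, 66.98] at E17.5 (141 cells) and 814 [776, 853] at P0 (290 cells). The P0 value stood alone above the others. It was 21.6-fold [14.6, 33.5] above E15.5, a direction in which 10.4% of 6236 genes passed 2-fold, and 16.3-fold [12.1, 22.4] above E17.5, where 3.3% did and 5 of 6536 genes had a higher ratio. The transplant was 6.99-fold [6.199, 7.902] below P0, past 2-fold as were 4.47% of genes, and 2.33-fold [1.699, 3.25] above E17.5, as were 8.87%. Mt2 differed less: it stood at 18.3 [13.5, 24.1] CPM in the transplant, 22.6 [12.6, 37.2] at E15.5, then 6.67 [2.45, 14.5] at E17.5 and 41.7 [33.5, 51.4] at P0, and P0 was 1.85-fold [1.06, 3.44] above E15.5. Within P0 mural cells, Mt1 stood at 701 CPM in the 89 cells with Ren1 UMIs, 649 CPM in the 146 with Myh11 or Acta2 but no Ren1, and 1533 CPM in the 55 with none of these. The 29 P0 cells with the most Mt1 held 64.1% of its UMIs, and 44 UMIs in 3000 were seen in the highest.

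The remaining classes stood below the proximal tubule of their library in Mt1. Podocytes, the filtering cells of the glomerulus, had 223 [208, 239] CPM of Mt1 in the transplant, 40.002 [31.6, 49.996] at E15.5, then 135 [115, 156] at E17.5 and 118 [106, 130.1] at P0, so that the transplant was the highest. E17.5 podocytes stood 3.37-fold [2.56, 4.46] above E15.5, past 2-fold as were 9.11% of genes. After thinning, 90.2% of podocytes held no Mt1 UMI at E15.5 and 87.5% at E17.5. The 18 of 176 E17.5 podocytes with the most Mt1 held 94.3% of its 70 UMIs, so this difference rests on few cells. In the transplant 79.5% of podocytes held no Mt1 UMI, and the top 40 of 400 held 79.6% of its UMIs. At P0 the top 46 of 462 held 85.7%, so these levels also rest on few cells. Ureteric and collecting duct cells had 52.8 CPM in the transplant, 161 at E15.5, then 53.9 at E17.5 and 158 at P0. Stroma had 78.5 CPM in the transplant, 30.7 at E15.5, then 34.7 at E17.5 and 102 at P0. Podocytes thus had their lowest Mt1 at E15.5, unlike the proximal tubule. In stroma the E15.5 interval overlapped that of E17.5. Early nephron cells (the vesicles and bodies formed by nephron progenitors) had 128 CPM at E15.5, then 54.9 at E17.5 and 68.6 at P0, and nephron progenitors had 28.98, 11.3 and 31.1 CPM. Mt2 in ureteric and collecting duct cells stood at 9.9001 CPM in the transplant (15 UMIs), 214 at E15.5, then 21.8 at E17.5 and 49.98 at P0. The transplant was 5.05-fold [3.02, 9.12] below P0, past 2-fold as were 8.84% of genes, and 2.204-fold [1.27, 4.11] below E17.5, as were 7.5%. The E17.5 comparison came to -0.66 with thinned cells and as a mean over cells, -0.73 without doublet removal and -0.92 with a gate of 6 marker UMIs on the log2 scale, each within 2-fold. Endothelium had 24.2 CPM in the transplant, 53.6 at E15.5, then 11.03 at E17.5 and 39.3 at P0. For Mt2 in endothelium the transplant was 4.42-fold [2.21, 9.797] above E17.5, where 8.37% of genes passed 2-fold, and it came to 0.58 on the log2 scale, within 2-fold, in cells low in stress RNA. Mt2 at E15.5 stood at similar levels in several classes. It had 19.7 CPM in podocytes, 21.1 in stroma, 22.6 in mural cells, 24.7 in endothelium and 29.1 in erythroid cells (17 UMIs). The part of free RNA in these levels was not tested. In nephron progenitors, Mt2 was near them, at 20.1 CPM at E15.5 (208 UMIs). There were 0 UMIs in 331 progenitors at E17.5, where 3 UMIs would be 1.03 CPM, and 7.03 CPM at P0 (21 UMIs). Against that floor of 3 UMIs in the library, Mt2 was at least 19.6-fold lower at E17.5 than at E15.5, a direction in which 3.38% of genes passed 2-fold.

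Over the classes with at least 50 UMIs in both libraries together, Mt2 was at least 2-fold lower at P0 than at E15.5 in 5 of 9 and higher in 0, while Mt1 was lower in 1 of 9 and higher in 3. In cells low in dissociation stress RNA, 1 of those 3, stroma, came to -0.023 on the log2 scale. Taking every gene in every such class, 7.3% were at least 2-fold lower in this comparison and 7.12% higher. Between P0 and E17.5, Mt1 was at least 2-fold higher at P0 in 7 of 10 classes and lower in 0, where 3.15% of genes over these classes were higher. Set against E15.5, E17.5 had Mt1 at least 2-fold lower in 5 of 10 classes and higher in 1. Mt2 was lower in 7 of 9 and higher in 0, so the lower E17.5 levels were not particular to the proximal tubule. In that comparison 2.72% (early nephron) to 6.46% (macrophages) of genes in a class were lower, and 2.63% (distal tubule) to 9.11% (podocytes) higher. Between the transplant and P0, Mt1 was at least 2-fold lower in the transplant in 5 of 9 classes and higher in 0, where 5.93% of genes over these classes were lower. Mt2 was lower in the transplant in 4 of 8 classes. Of these, mural cells came to 0.18 on the log2 scale in cells low in stress RNA (31 and 10 cells, with few Mt2 UMIs). They came to -0.70 without doublet removal, -0.87 with thinned cells and -0.96 with classes from clusters. Mt2 was higher in 1, podocytes (2.12-fold [1.64, 2.75], beside 9.65% of genes). There 5 of the alternatives in processing left it within 2-fold, the lowest at 0.26 on the log2 scale with thinned cells. Classes of a library share its dissociation and its free RNA, so they are not replicates.

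**Figure D3:**
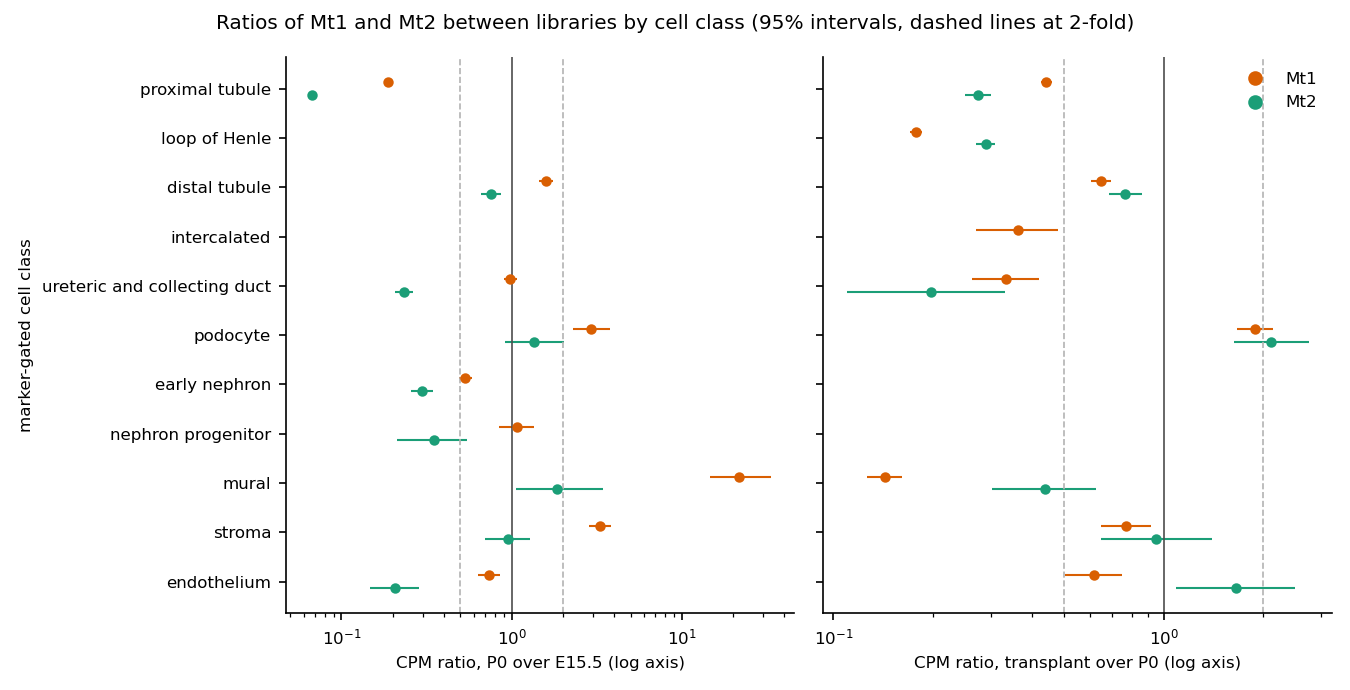
Ratio of CPM on a log axis, P0 over E15.5 (left) and transplant over P0 (right), for Mt1 and Mt2 in each class with at least 50 UMIs over both libraries; bars are exact conditional 95% intervals and dashed lines mark 2-fold. On the left, proximal tubule and mural cells lie on opposite sides for Mt1, and the Mt2 ratio lies below the Mt1 ratio in each of the 9 classes.

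The balance of Mt2 to Mt1 differed between E15.5 and the later ages in the same direction in every class that could be compared. At E15.5 the Mt2 UMIs per Mt1 UMI had a median of 0.688 over 9 classes with at least 50 UMIs of the pair, from 0.243 in macrophages to 1.33 in ureteric and collecting duct cells. The medians were 0.216 over 10 classes in the transplant (0.0985 to 0.443), 0.263 over 10 at E17.5 (0.104 to 0.405) and 0.226 over 11 at P0 (0.0513 to 0.359). The ratio was lower at P0 than at E15.5 in 8 of 8 classes, and lower at E17.5 than at E15.5 in 8 of 8. The classes of a library share its free RNA and are not replicates. At E15.5 most metallothionein UMIs were in proximal tubule cells, and the part of free RNA in the ratio of other classes was not tested. Ureteric and collecting duct cells at E15.5 were the only class and library with more Mt2 than Mt1 UMIs, at 1.33 [1.23, 1.45], and had 0.316 [0.279, 0.357] at P0. In proximal tubule cells the ratio was 0.173 [0.158, 0.189] in the transplant, 0.7703 [0.752, 0.789] at E15.5, then 0.147 [0.125, 0.171] at E17.5 and 0.278 [0.265, 0.293] at P0. The transplant was above P0 in 7 of 9 classes, with 0.443 [0.414, 0.474] in its loop of Henle cells and 0.274 [0.262, 0.285] at P0, and below it in proximal tubule and in ureteric and collecting duct cells. A count of 3′ ends does not grow with transcript length, but the capture of each transcript is unknown, so the ratio is compared between libraries and is not a molar ratio. How reads that fit both of these similar genes were counted is not given in the sources used here, so the split between them is uncertain.

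**Figure D4:**
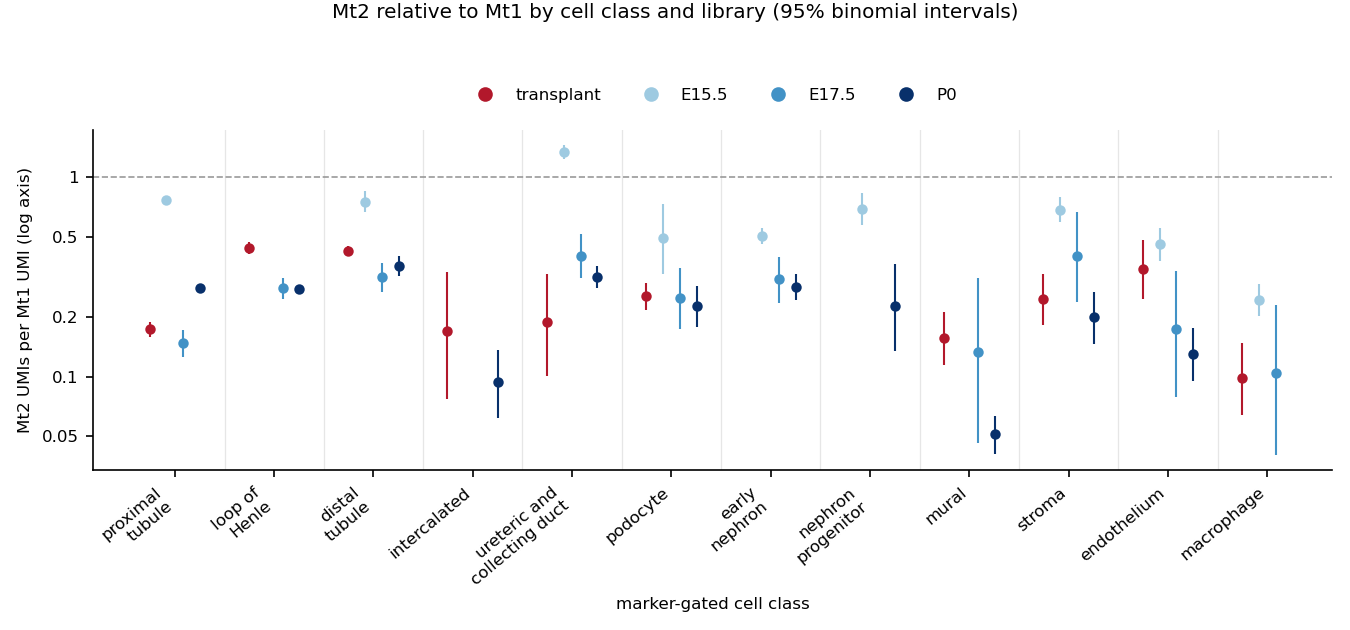
Mt2 UMIs per Mt1 UMI on a log axis for each class and library with at least 50 UMIs of the pair, with exact conditional 95% intervals; the dashed line marks equal counts. In each of the 8 classes that E15.5 shares with P0, the E15.5 point lies above the P0 point, and 1 point, ureteric and collecting duct at E15.5, lies above the dashed line.

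Slc39a5, the zinc importer, was nearly confined to the proximal tubule among the gated classes, at a similar level in all 4 libraries. It stood at 256 [248, 265] CPM in transplant proximal tubule cells, 204 [192, 217] at E15.5, then 208 [197, 219] at E17.5 and 229 [221, 238] at P0. None of the 5 ratios between libraries passed 2-fold, and the transplant was 1.23-fold [1.16, 1.31] above E17.5 and 1.12-fold [1.07, 1.18] above P0. Proximal tubule cells held 89.98% of the Slc39a5 UMIs in the transplant, 66.8% at E15.5, then 87.3% at E17.5 and 82.4% at P0. Early nephron cells came next at the 3 ages, with 7.05 CPM at E15.5, then 12.47 at E17.5 and 6.003 at P0. After thinning, a Slc39a5 UMI was seen in 53.7% of proximal tubule cells in the transplant, 48.9% at E15.5, then 43.2% at E17.5 and 45.7% at P0 (90.5%, 96.02%, 79.4% and 88.9% without thinning). In endothelial cells the thinned shares were 1.18%, 0.976%, 0.247% and 1.23% (2.37%, 4.39%, 0.741% and 2.22% without thinning), at the median depths given above. E15.5 proximal tubule cells with under 15 marker UMIs had 174 CPM, against 278 CPM in those with more.

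Slc30a1, the zinc exporter, was within 2-fold between all libraries in proximal tubule cells. It stood at 26.9 [24.3, 29.8] CPM in the transplant, 36.2 [31.2, 41.8] at E15.5, then 29.6 [25.7, 34.003] at E17.5 and 30.7 [27.7, 33.9] at P0. The E15.5 level was the highest, as for the metallothioneins, and its interval lay above that of the transplant, while the intervals of E17.5 and P0 overlapped each other's and both of these. P0 over E15.5 was 0.848-fold [0.7097, 1.02]. The proximal tubule had the highest Slc30a1 of the classes in each library, and at P0 and in the transplant its interval overlapped that of the next class. Nephron progenitors had 12.4 CPM at P0 and 2.99 CPM at E15.5, a difference of 4.14-fold [2.498, 6.896], where 5.17% of 9744 genes were at least 2-fold higher. Transplant distal tubule cells had 23.4 CPM against 7.76 CPM at P0 (6 UMIs), a difference of 3.02-fold [1.34, 8.42], where 19.8% of genes were at least 2-fold higher. The distal difference came to 0.66 on the log2 scale with classes from clusters, and the progenitor difference to 0.48 in cells low in dissociation stress RNA, both within 2-fold. At P0, Slc30a1 also stood above E17.5 by 2.79-fold [1.45, 5.71] in nephron progenitors (37 and 13 UMIs), where 3.03% of genes were at least 2-fold higher, and by 2.86-fold [1.74, 4.97] in early nephron cells (133 and 18 UMIs), where 2.75% were. The early nephron difference was within 2-fold with thinned cells (0.57 on the log2 scale), in cells low in stress RNA (0.80) and with classes from clusters (0.87). In the transplant it stood above E17.5 by 3.899-fold [1.48, 14.6] in distal tubule cells (108 and 4 UMIs), where 11.6% of genes were, and by 2.09-fold [1.21, 3.57] in ureteric and collecting duct cells, where 13.3% were. The ureteric and collecting duct difference came to between 0.68 and 0.98 on the log2 scale under 4 alternatives. Slc30a1 was at least 2-fold higher at P0 in 1 of 6 classes against E15.5 and in 2 of 6 against E17.5, beside 7.12% and 3.15% of genes over all classes. In the transplant it was higher in 1 of 6 classes against P0, beside 13.3% of genes, and in 2 of 5 against E17.5, beside the shares above. Between E17.5 and E15.5 it passed 2-fold in 0 of 5. Of these 6 higher ratios, 0 were in the proximal tubule, and several came within 2-fold under alternatives. It was at least 2-fold lower in 0.

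Mtf1, the zinc sensor, was low and even. In proximal tubule cells it stood at 16.7 [14.6, 18.97] CPM in the transplant, 16.5 [13.2, 20.5] at E15.5, then 12.3 [9.83, 15.3] at E17.5 and 17.8 [15.6, 20.3] at P0. Where it had at least 20 UMIs, its level ran from 8.61 CPM in P0 stroma to 28.4 CPM in P0 distal tubule cells (22 UMIs). It passed 2-fold in 0 of 8 classes between P0 and E15.5, beside 7.3% of genes lower and 7.12% higher over all classes. Between P0 and E17.5 it did in 1 of 8 (mural, 2.39-fold [1.21, 5.25] higher), beside 3.15% of genes higher over all classes and 3.3% in mural cells. Between the transplant and P0 it did in 1 of 8 (stroma, 2.01-fold [1.21, 3.43] higher). With classes from clusters both of these were within 2-fold, at 0.98 and 0.44 on the log2 scale. In transplant stroma 10.7% of genes were at least 2-fold higher than at P0, and over all classes 13.3%. Ordered by level within the transplant, E17.5 and P0, each class overlapped the next except ureteric and collecting duct over stroma at P0.

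**Figure D5:**
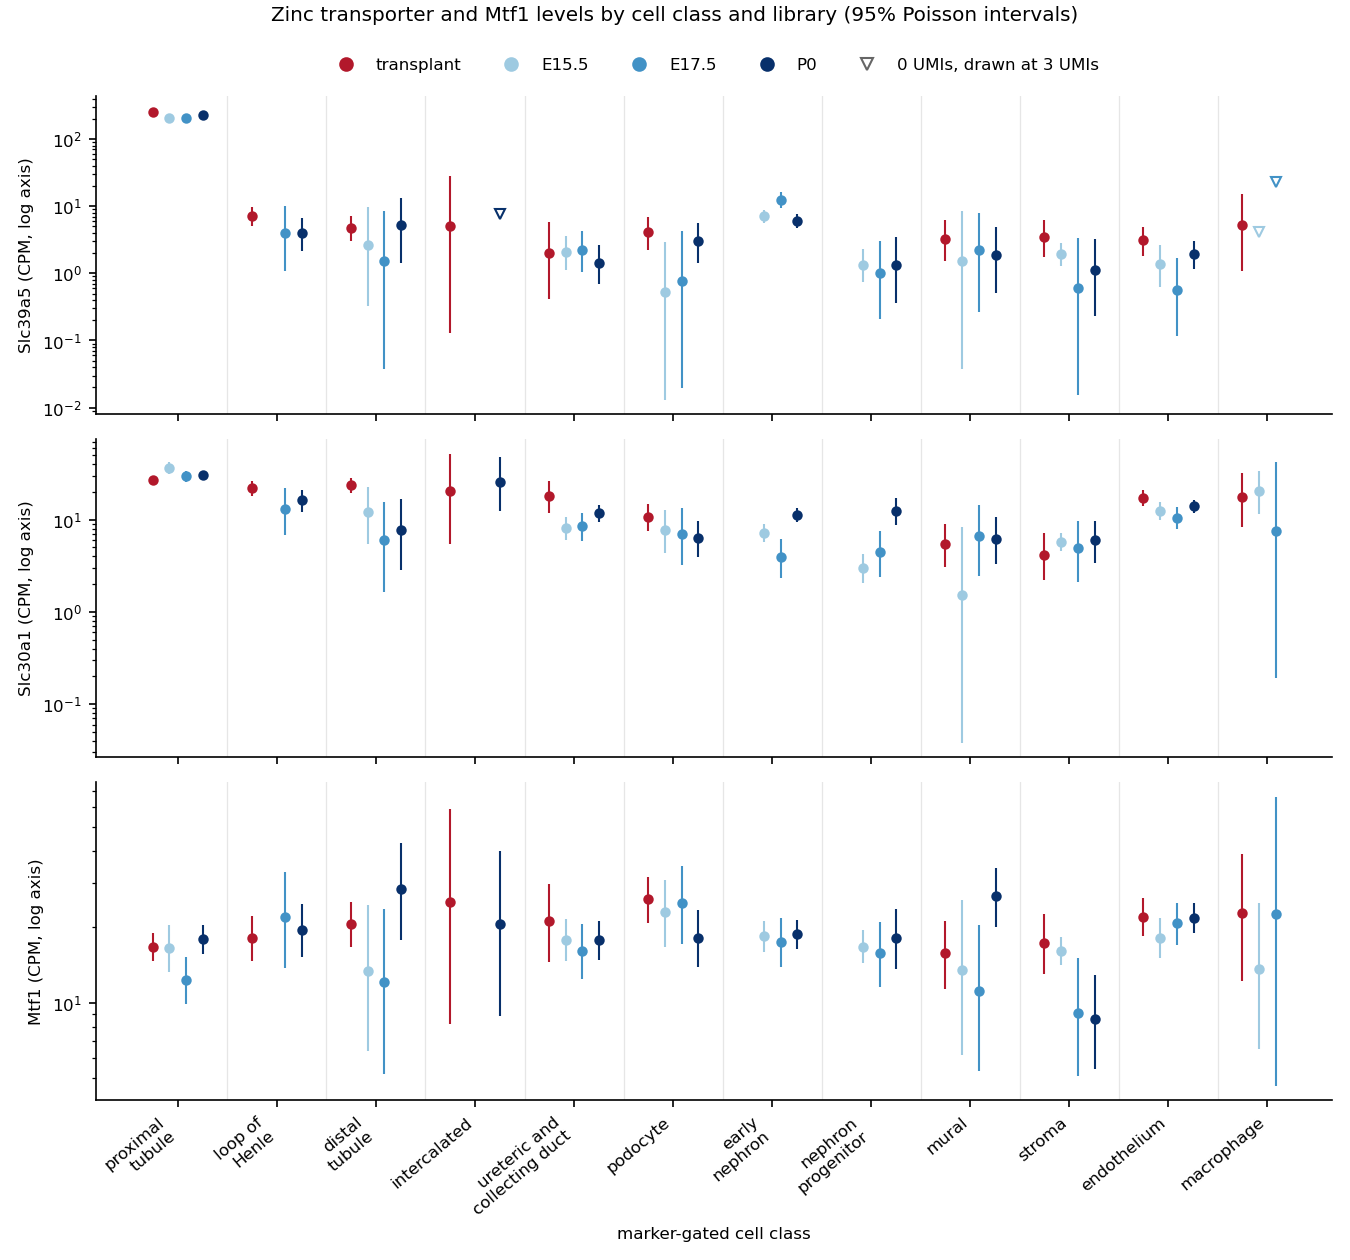
Slc39a5, Slc30a1 and Mtf1 in CPM on log axes for classes and libraries of at least 20 cells, with exact Poisson 95% intervals. Erythroid cells at E15.5 (25 cells) are not drawn. Triangles mark 0 UMIs, drawn at the level of 3 UMIs. The 4 Slc39a5 points of proximal tubule lie between 204 and 256 CPM, above every other class, whereas Mtf1 spans a narrow range.

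The other zinc transporters of the proximal tubule differed little between P0 and E15.5. Of 9 other SLC30 exporters, 6 had at least 50 UMIs, and 1 was at least 2-fold lower at P0 and 0 higher, where 5.42% of all genes were lower and 6.27% higher. That gene was Slc30a2, which loads zinc into vesicles, at 4.38 CPM at P0 and 9.25 at E15.5. Of 13 other SLC39 importers, 10 had enough UMIs and 0 passed 2-fold. The highest ratios were those of Slc39a10 (1.94-fold [1.503, 2.55]) and Slc39a8 (1.28-fold [1.11, 1.48]). Of 14 genes for copper, iron and other divalent metals, 13 had enough UMIs and 0 passed 2-fold. The list medians were -0.02, -0.14 and 0.29 on the log2 scale, beside -0.05 over all genes.

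Between the transplant and P0, 2 of 10 importers were at least 2-fold higher in transplant proximal tubule cells and 0 lower, beside 9.93% of all genes higher. They were Slc39a1, at 93.9 CPM in the transplant and 34.8 at P0, and Slc39a3, at 18.97 and 7.12 CPM. No exporter passed 2-fold. Of the copper and iron genes, Slc31a2, a copper transporter gene, was 2.73-fold [2.29, 3.26] higher and Tfrc, the transferrin receptor gene, 8.48-fold [6.902, 10.5] lower. Of the other metallothioneins, Mt3 had 1, 4, 7 and 1 UMIs in proximal tubule cells of the transplant, E15.5, E17.5 and P0, and Mt4 had 0 in each.

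In proximal tubule cells, where Mt1 and Mt2 stood lower at P0 than at E15.5, other gene lists were set against the same pair of libraries. Of 10 glucocorticoid response genes with enough UMIs, 7 were at least 2-fold higher at P0 and 0 lower, with a median of 1.97 on the log2 scale, beside 6.27% of all genes higher, 5.42% lower and a median of -0.05. For oxidative stress genes, targets of NRF2, it was 1 of 8 higher and 0 lower, near the share over all genes. For hypoxia genes it was 7 of 9 higher and 0 lower, and for tubular injury genes 5 of 7 higher and 0 lower. Dissociation stress genes (early response and heat shock genes that cell isolation is known to induce) were higher in 13 of 16 and lower in 0, with a median of 2.13. Hspa1a, a heat shock gene, stood at 614 CPM at P0 and 1.77 at E15.5. In mural cells, where Mt1 stood higher at P0 than at E15.5, 7 of 8 glucocorticoid response genes and 12 of 16 dissociation stress genes were at least 2-fold higher and 0 lower, beside 10.4% of all genes higher.

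The summed dissociation stress genes averaged 16.1 UMIs in 3000 per proximal tubule cell in the transplant, 9.44 at E15.5, then 17.1 at E17.5 and 34.9 at P0. In mural cells they averaged 34.3, 15.2, 45.1 and 58.2, so that P0 was the highest in both classes. Between the transplant and P0, 8 of 16 of these genes were at least 2-fold lower in transplant proximal tubule cells, beside 5.18% of all genes, and 8 of 16 in mural cells, beside 4.47%. In the cells with at most 12 such UMIs, Mt1 in proximal tubule cells was 322 CPM in the transplant (388 cells), 3118 at E15.5 (136 cells), then 267 at E17.5 (283 cells) and 508 at P0 (112 cells). The E15.5 level was again the highest, and the transplant was within 2-fold of P0. In mural cells with as few, shown from 10 cells up in this selection, Mt1 was 99.98 CPM in the transplant (31 cells) and 38.8 at E15.5 (17 cells). It was 16.3 at E17.5 (10 cells) and 656 at P0 (10 cells). All 141 E17.5 mural cells together held 45 Mt1 UMIs, so the value from 10 of them rests on very few. No interval is given for these small groups. The part of glucocorticoid signalling, hypoxia, depth or strain in the differences was not tested.

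Genes were ranked by how closely their levels followed those of a member over 36 classes and libraries of at least 50 cells, by the Pearson correlation of log2(CPM + 10). Mt2 came first for Mt1, with r = 0.92, among 4374 genes with at least 100 CPM in at least 1 of them. The next for Mt1 were Sostdc1 (0.77), Fabp3 (0.77), Ppargc1a (0.77) and Mcee (0.76). After Mt1, the next for Mt2 were Cox7b (0.80), Aifm1 (0.79), Npb (0.78) and Sostdc1 (0.77). In proximal tubule cells, Fabp3, a fatty acid binding protein gene, stood at 330.3 CPM in the transplant, 152 at E15.5, then 657 at E17.5 and 416 at P0, lowest where Mt1 was highest. For Slc39a5, among 12566 genes with at least 10 CPM in at least 1 of them, the closest were Vil1, Amn, Serpinf2, Anks4b and Tmem174, with r of 0.99 each. Vil1 encodes villin of the brush border, and Amn a partner of cubilin in protein uptake. Slc39a5 itself had an r of 0.37 with Mt1 and 0.72 with Slc30a1. The points share libraries and cell classes, and the correlations are a description.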

How the data were processed

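The deposited matrices of raw UMI counts per gene and cell barcode of 4 mouse kidney libraries were read as the authors left them. Per the labels the libraries were made with 10x 3′ chemistry, and per the submitters' processing notes Cell Ranger 3.1.0 and GRCm38 were used. Per the file headers, the matrices of E15.5 and P0 were written by software version 3.0.2, those of E17.5 and the transplant by version 3.1.0. The handling of strand and of reads that fit several genes is not given in the sources used here. A further matrix that joins several libraries was not used here. Barcodes and gene symbols were taken as the authors deposited them.

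A cell was kept if it had 500 genes or more and no more than 20% mitochondrial UMIs. Doublets were removed with Scrublet at 0.8% per 1000 cells. This left 6268 transplant cells, 3463 E15.5 cells, 4396 E17.5 cells and 7568 P0 cells. Library totals over all barcodes ran from 42430540 to 99068204 UMIs. Cells under 3000 UMIs, which were 27.5% of kept transplant cells and between 3.87% and 8.79% in the other libraries, were not gated. The gates used 97 markers of 15 classes, none of them a gene described. Levels have exact Poisson intervals, ratios exact conditional binomial intervals and shares of cells Clopper-Pearson intervals, all at 95% and for counting error only. A ratio was counted as past the fold at 2-fold by its point value, for genes with at least 50 UMIs over both libraries. Each group is 1 library, so no test was made. The genes described, the gene lists and the rules were chosen with earlier results of these data known. From each list, up to 2 genes with the highest and 2 with the lowest ratio could be named. Alternatives changed the cell filters, doublets, gates, class definition (Leiden clusters), weighting, scaling, denominator and depth. Python 3.11.15, scanpy 1.11.5, scipy 1.17.1, numpy 2.4.6, python-igraph 0.11.9 and matplotlib 3.10.9 were used, and the scripts were tested on simulated data.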

Additional observations from a re-analysis of the deposited data

Results flagged for a closer look

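In 5 comparisons a metallothionein lay past 2-fold in opposite directions in a pair of cell classes. With 1 library a group these differences between classes were not tested, and their cause was not tested.

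Mt1 at P0 relative to E15.5 had a log2 ratio of -2.42 in proximal tubule cells and 4.44 in mural cells. Mt1 at E17.5 relative to E15.5 had a log2 ratio of -3.96 in proximal tubule cells and 1.75 in podocytes. Mt1 in the transplant relative to E17.5 had a log2 ratio of -1.2 in loop of Henle cells and 1.22 in mural cells. Mt2 in the transplant relative to P0 had a log2 ratio of -2.34 in ureteric and collecting duct cells and 1.08 in podocytes. Mt2 in the transplant relative to E17.5 had a log2 ratio of -1.14 in ureteric and collecting duct cells and 2.15 in endothelium. The share of all genes past 2-fold is given with each ratio above. Under some alternatives given above, the loop of Henle value, the podocyte value of Mt2 and both values of Mt2 relative to E17.5 came within 2-fold. The podocyte value of Mt1 rests on few cells.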

How the results depend on the processing

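No paired analysis was possible because each group is 1 library. The alternatives gave 1758 values for 165 ratios, of which 59 were past 2-fold. Of the 628 alternative values of those 59, 625 had the same sign. The 3 with the other sign came from keeping cells with at most 12 dissociation stress UMIs, a choice made after seeing the data: -0.023 on the log2 scale for Mt1 in stroma, P0 over E15.5 (39 and 364 cells), 0.18 for Mt2 in mural cells, transplant over P0 (31 and 10 cells), and -0.74 for Mt2 in endothelium, P0 over E17.5 (55 and 81 cells). The mural value rests on few UMIs, as all 290 P0 mural cells together held 88 Mt2 UMIs. The values that follow are log2 ratios in proximal tubule cells.

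For P0 over E15.5, Mt1 (-2.42) came to -2.66 with a gate of 6 marker UMIs, -2.37 with a gate of 2, -2.37 with classes from clusters, -2.56 with a total without mitochondrial, ribosomal and haemoglobin genes, -2.46 with thinned cells, -2.53 as a mean over cells, -2.37 after division by the median ratio of all genes, and -2.62 in cells low in stress RNA. Mt2 (-3.88) came to -4.07 with the gate of 6, -4.03 with the reduced total and -4.64 in cells low in stress RNA. For the transplant over P0, Mt1 (-1.18) came to -1.11 without doublet removal, -0.99 with clusters, -1.32 with the reduced total, -1.37 after division by the median ratio and -0.66 in cells low in stress RNA. Mt2 (-1.86) came to -1.72, -1.57, -2.01, -2.06 and -1.01 under the same settings. The causes of these shifts were not tested. Depth limits Mtf1 and Slc30a1, which had fewer than 20 UMIs in many classes, and Mt2 outside the tubules.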
